A study of Drosophila melanogaster with 10 samples.

Results

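The 10 genes described here encode the core of the pathway by which Drosophila spermatids switch on caspases without dying. They were found by matching the symbols Dronc, Drice, Dark, Dcp-1, Diap1, Cul3, klhl10, Roc1b, Bruce and Cyt-c-d to FlyBase identifiers in the fly gene annotation, and all 10 were among the 17412 identifiers counted. All 10 also passed the filter on low counts, which kept 13831 genes. Late in spermiogenesis, spermatids that share one cytoplasm are separated by an individualization complex that strips away most of the cytoplasm, and this needs active caspases. Dark, the fly relative of Apaf-1, activates the initiator caspase Dronc, which in turn cleaves the effector caspases Drice and Dcp-1. The inhibitors of apoptosis Diap1 and Bruce hold caspases back. A ubiquitin ligase built from Cul3, the testis adaptor Klhl10 and the RING protein Roc1b relieves that inhibition in spermatids, and the testis cytochrome c Cyt-c-d is also required for caspase activation there.

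RNA was counted per gene in whole testes under 5 conditions, with 2 libraries each. Males were under 2 days old, and 100 pairs of testes went into a sample. B9d1 KD carries w;B9d1RNAi;bam-Gal4, UAS-dicer2, and its label gives young spermatocytes as the enriched stage. The other two knockdowns, labelled Tektin-C KD and Klp59D KD, carry the same bam-Gal4 and UAS-dicer2 with an RNAi construct against the named gene, and are labelled as enriched for mature spermatocytes. The sa mutant (sa-/-, allele not given) has the mature spermatocyte label too, and lacks a testis form of a general transcription factor subunit that spermatocytes need to switch on spermatid genes. WT testes hold all stages. The driver bam-Gal4 acts in late spermatogonia, so RNA interference begins in germ cells before the spermatocyte stage, and extra Dicer-2 is present in all knockdowns. Knockdown flies spent 3 days at 22°C and then 8 days at 30°C. Neither the sa mutant, with 12 days at 22°C, nor WT, with 10 days at 22°C, was moved to the higher temperature. Temperature, driver, Dicer-2 and germ cell makeup therefore differ together between any knockdown and WT and cannot be told apart, whereas the sa mutant and WT shared a temperature.

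The targeted transcripts were checked first. B9d1 was at 8.93 and 9.95 CPM (read counts scaled to the library's effective total) in B9d1 KD and at 107 to 196 CPM in the other libraries, and sa was at 3.72 and 3.26 CPM in the sa mutant and 36.3 to 169.7 CPM elsewhere. Tektin-C and Klp59D went against their labels. In the group labelled Tektin-C KD it was Klp59D that was low, at 29.4 and 30.1 CPM, while Tektin-C was low, at 12.7 and 11.6 CPM, in the group labelled Klp59D KD. Both groups keep their labels below, and their directions are those of the labelled libraries. Libraries held 17621525 to 30798942 counts. The 2 libraries of a condition differed by little more than sampling noise (5.26% to 5.47% of genes with 50 to 5000 counts fell outside their 95% binomial range). Among the 10 genes, 9 of 50 pairs of libraries fell outside it, a larger share. For genes with 5000 counts or more, the median squared deviation was 1.33 to 1.55 times the binomial one. Counting error alone thus understates the spread of such genes. For the 10 genes as a set, the intervals given below are likely too narrow as well. The 2 libraries were summed and counted as 1 sample, so no comparison has a replicate check and no p-value is given. Differences are called at 2-fold, on log2 CPM with a prior count of 2. Overlap of single libraries is given below only to describe the values, since the 2 of a condition are close repeats. Square brackets hold the exact 95% binomial interval of a fold, which takes in counting error alone.

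The 10 genes differed in where they were highest, as the plot of levels by library shows. The Cullin-3 adaptor klhl10, the RING gene Roc1b and Cyt-c-d were lowest in the sa mutant and highest in WT. So was the inhibitor Diap1, over a narrower range. The apoptosome genes Dronc and Dark, the effector caspase gene Dcp-1 and the inhibitor Bruce were lowest in WT. Drice and the inhibitor Diap1 varied least, over 0.50 and 0.61 on the log2 scale between the highest and lowest condition, against 3.88 for Roc1b. In whole testes, fewer cells of a type and less RNA per cell cannot be told apart.

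**Figure D1:**
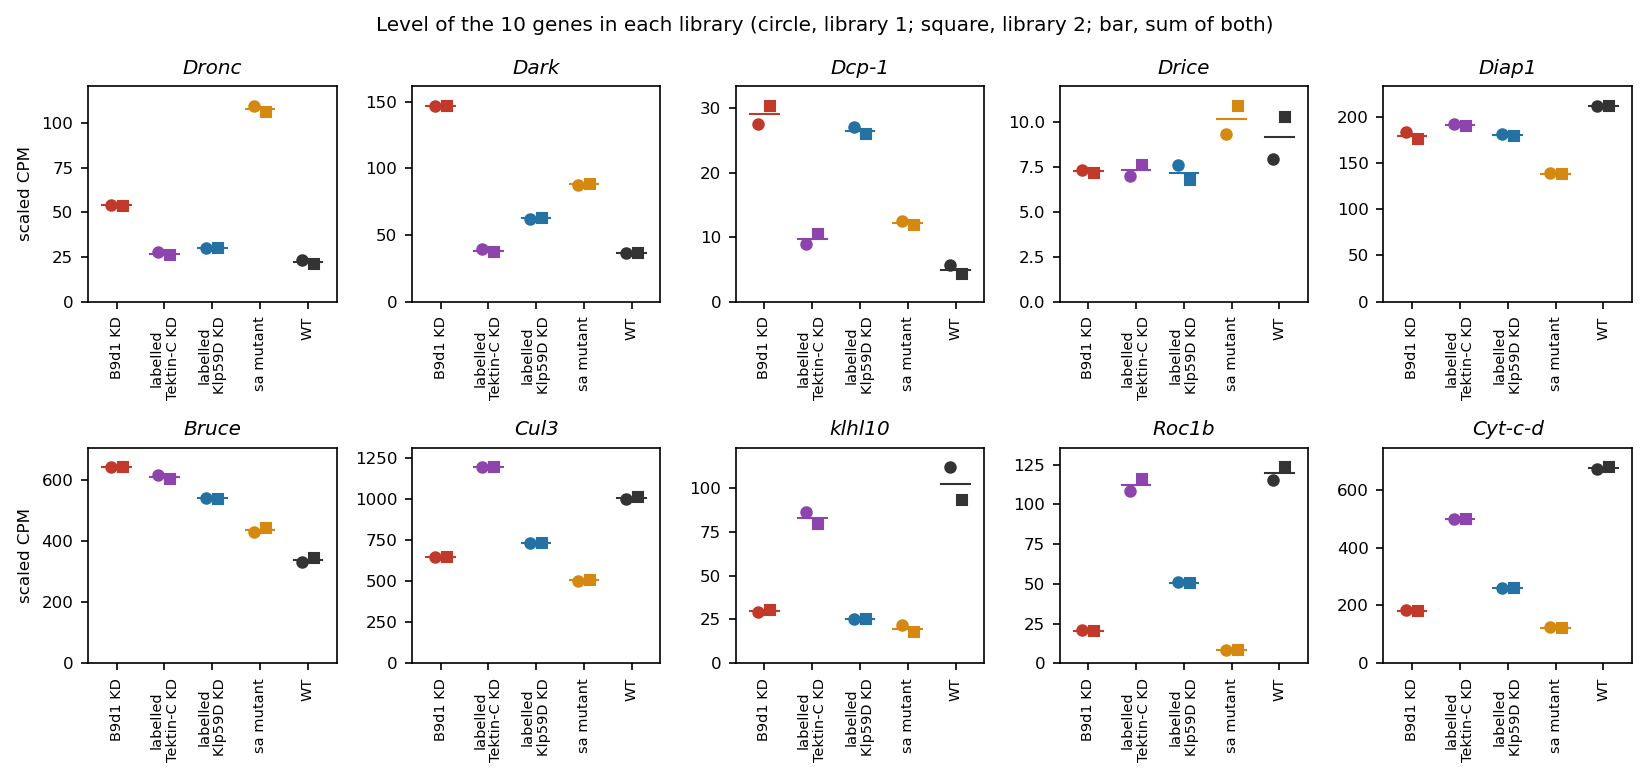
Scaled CPM of each of the 10 genes (vertical axes, each from 0) in the 10 libraries, by condition; circles and squares are libraries 1 and 2 and the bar is their sum. Roc1b was at 8.02 and 8.16 CPM in the sa mutant against 115.6 and 123.5 CPM in WT, whereas Dronc was at 109.7 and 106 CPM against 23.2 and 21.1 CPM.

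The caspases and their activator are taken first. Dronc (FBgn0026404; dm6 3L, 9968479 to 9971002, plus strand) was at 54.3 and 53.5 CPM in B9d1 KD, 27.7 and 26.2 CPM under the Tektin-C KD label, 30.2 and 30.3 CPM under the Klp59D KD label, and 109.7 and 106 CPM in the sa mutant, against 23.2 and 21.1 CPM in WT. No condition overlapped another, the sa mutant was by far the highest, and the labelled Tektin-C KD libraries lay closest to WT. Dronc was 4.87-fold higher in the sa mutant than in WT [4.50 to 5.30] and 2.43-fold higher in B9d1 KD [2.24 to 2.66]. It was 1.37-fold higher in the sample labelled Klp59D KD and 1.22-fold higher in that labelled Tektin-C KD.

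Dark (FBgn0263864; 2R, 17020027 to 17026703, plus strand), the scaffold on which Dronc is activated, had another peak. It was at 146.8 and 147.0 CPM in B9d1 KD, 39.7 and 37.0 CPM under the Tektin-C KD label, 62.2 and 62.8 CPM under the Klp59D KD label, and 87.4 and 88.5 CPM in the sa mutant, against 36.9 and 36.5 CPM in WT. B9d1 KD was the highest condition, and the Tektin-C KD label and WT did not differ beyond counting error (fold 1.04 [0.968 to 1.13]). Dark was 4.0-fold higher in B9d1 KD than in WT [3.76 to 4.28] and 2.40-fold higher in the sa mutant [2.25 to 2.57]. An antisense gene on the opposite strand, asRNA:CR44390, shares 56.9% of Dark's exon bases, and was at 0.751 to 2.11 CPM in the summed samples.

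The effector caspases differed from each other. Dcp-1 (FBgn0010501; 2R, 23551313 to 23553547, plus strand) was at 27.6 and 30.4 CPM in B9d1 KD, 8.92 and 10.5 CPM under the Tektin-C KD label, 27.1 and 26.0 CPM under the Klp59D KD label, and 12.6 and 11.9 CPM in the sa mutant, against 5.70 and 4.34 CPM in WT. All 8 libraries of the altered testes lay above both WT libraries. Dcp-1 was 5.79-fold higher in B9d1 KD than in WT [4.92 to 6.96], 5.28-fold higher under the Klp59D KD label [4.49 to 6.35] and 2.44-fold higher in the sa mutant [2.05 to 2.96]. Under the Tektin-C KD label it was 1.95-fold higher [1.62 to 2.37], a log2 fold of 0.96, which was 1.26 without library 1 of every condition and 0.63 without library 2. WT held only 146 Dcp-1 counts. The zinc finger gene pita overlaps 13.7% of its exon bases on the opposite strand and was higher in all 4 altered conditions too, at 105 CPM in B9d1 KD, 102 CPM under the Tektin-C KD label, 91.2 CPM under the Klp59D KD label and 128 CPM in the sa mutant, against 37.5 CPM in WT. The part of this overlap in the Dcp-1 counts was not tested.

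Drice (FBgn0019972; 3R, 29799658 to 29801584, plus strand) was at 7.32 and 7.18 CPM in B9d1 KD, 7.01 and 7.60 CPM under the Tektin-C KD label, 7.60 and 6.80 CPM under the Klp59D KD label, and 9.33 and 10.9 CPM in the sa mutant, against 7.93 and 10.3 CPM in WT. The knockdown libraries overlapped each other, and the sa mutant overlapped WT. No condition reached a 2-fold difference, and the fold in the sa mutant was 1.11 [0.952 to 1.29].

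Among the inhibitors, Diap1 binds and ubiquitinates caspases and Bruce is a very large protein with a BIR domain and ubiquitin-conjugating activity. Diap1 (FBgn0260635; 3L, 16038410 to 16051034, minus strand) was at 183 and 176 CPM in B9d1 KD, 192 and 190.5 CPM under the Tektin-C KD label, 181 and 179 CPM under the Klp59D KD label, and 139 and 138 CPM in the sa mutant, against 212 and 212 CPM in WT. B9d1 KD and the Klp59D KD label overlapped, and the sa mutant was lowest at 1.53-fold below WT [1.48 to 1.58], although with library size alone as the scale its log2 fold was 0.14, where the median of all genes was 0.78. Bruce (FBgn0266717; 3R, 10312039 to 10331353, minus strand) was at 640.4 and 641 CPM in B9d1 KD, 616 and 602 CPM under the Tektin-C KD label, 541 and 538 CPM under the Klp59D KD label, and 428.5 and 441 CPM in the sa mutant, against 331 and 346 CPM in WT. It was 1.89-fold above WT in B9d1 KD [1.85 to 1.94], 1.80-fold under the Tektin-C KD label, 1.59-fold under the Klp59D KD label and 1.29-fold in the sa mutant. With library size alone the log2 fold of Bruce was 1.49 in B9d1 KD, 1.20 under the Klp59D KD label and 1.12 in the sa mutant, each then past 2-fold.

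The ubiquitin ligase subunits spanned narrow to wide ranges between conditions. Cul3 (FBgn0261268; 2L, 15265245 to 15272024, minus strand) was at 648 and 646.5 CPM in B9d1 KD, 1193 and 1195 CPM under the Tektin-C KD label, 732 and 731 CPM under the Klp59D KD label, and 504 and 506 CPM in the sa mutant, against 1001 and 1011 CPM in WT. No condition overlapped another, and Cul3 was the only one of the 4 testis ligase and cytochrome c genes that stood higher under the Tektin-C KD label than in WT (1.19-fold [1.17 to 1.20]). In the sa mutant it was 1.99-fold lower than in WT [1.96 to 2.03], on the edge of the 2-fold limit, and passed it with RLE scaling, with DESeq2 and without structural and mitochondrial RNAs. The gene is known to have a testis-specific form, and the counts do not separate its 4 annotated transcripts.

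The adaptor klhl10 (FBgn0040038; on an unmapped scaffold of the annotation, 53442 to 85529, plus strand), which brings substrates to Cul3, was at 29.4 and 30.3 CPM in B9d1 KD, 86.5 and 79.3 CPM under the Tektin-C KD label, 25.3 and 25.2 CPM under the Klp59D KD label, and 22.0 and 17.6 CPM in the sa mutant, against 111.9 and 93.0 CPM in WT. WT and the Tektin-C KD label formed a high pair of conditions and the other three a low set, with no overlap. It was 5.18-fold lower in the sa mutant than in WT [4.82 to 5.58], 4.03-fold lower under the Klp59D KD label [3.79 to 4.30] and 3.41-fold lower in B9d1 KD [3.21 to 3.62]. Its 2 libraries differed beyond the 95% binomial range in 3 of 5 conditions, more than for any other of the 10 genes.

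Roc1b (FBgn0040291; 3L, 357981 to 358486, plus strand), the RING subunit that recruits the ubiquitin-conjugating enzyme, was at 20.6 and 20.4 CPM in B9d1 KD, 108.5 and 115.7 CPM under the Tektin-C KD label, 51.1 and 50.5 CPM under the Klp59D KD label, and 8.02 and 8.16 CPM in the sa mutant, against 115.6 and 123.5 CPM in WT. The Tektin-C KD label and WT overlapped, and the other three conditions were each apart. Roc1b had the widest range of the 10 genes: it was 14.7-fold lower in the sa mutant than in WT [13.3 to 16.5], 5.84-fold lower in B9d1 KD [5.47 to 6.25] and 2.36-fold lower under the Klp59D KD label [2.24 to 2.48]. All of its exon bases lie within exons of Cdc5 on the opposite strand. Cdc5, a splicing factor gene, was at 77.1 CPM in B9d1 KD, 29.8 CPM under the Tektin-C KD label, 56.6 CPM under the Klp59D KD label and 47.3 CPM in the sa mutant, against 19.4 CPM in WT, so it was lowest in WT, where Roc1b was highest, and highest in B9d1 KD. The part of Cdc5 reads in the Roc1b counts was not tested.

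Cyt-c-d (FBgn0086907; 2L, 16715891 to 16719635, plus strand) was at 184 and 179 CPM in B9d1 KD, 499.5 and 498 CPM under the Tektin-C KD label, 260.4 and 259 CPM under the Klp59D KD label, and 124 and 123 CPM in the sa mutant, against 672 and 679 CPM in WT. No condition overlapped another, and the order was the one seen for Roc1b. It was 5.48-fold lower in the sa mutant than in WT [5.32 to 5.64], 3.72-fold lower in B9d1 KD [3.64 to 3.81] and 2.60-fold lower under the Klp59D KD label [2.55 to 2.66]. CG31808 on the opposite strand covers 36.4% of its exon bases and was at 6.90 to 7.27 CPM in the altered conditions, against 10.95 CPM in WT. The identifier of the somatic cytochrome c gene Cyt-c-p in the annotation matched no counted identifier, so that gene was not analysed here.

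**Figure D2:**
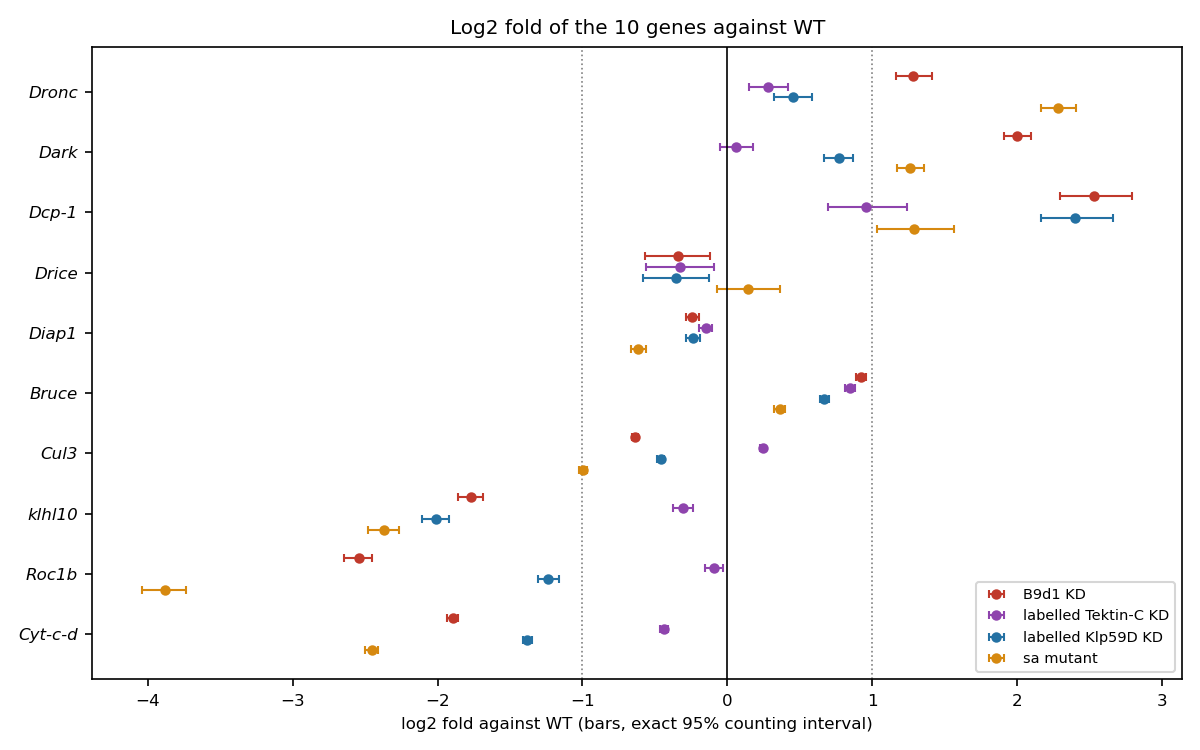
Log2 fold of each gene against WT (horizontal axis) for the 4 altered conditions; points are summed samples, bars are exact 95% counting intervals and dotted lines mark 2-fold. Dronc, Dark and Dcp-1 lie to the right and klhl10, Roc1b and Cyt-c-d to the left in B9d1 KD and the sa mutant, while all points of the sample labelled Tektin-C KD lie between the dotted lines.

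Counted against WT, 6 of the 10 genes were at least 2-fold apart in B9d1 KD, 3 higher (Dronc, Dark and Dcp-1) and 3 lower (klhl10, Roc1b and Cyt-c-d). Among all genes, 53.1% were at least 2-fold apart in that comparison, 27.7% higher and 25.5% lower, so the count of 6 is near the background. The sa mutant also had 6 genes apart, 3 higher and 3 lower with the same names, where the background was 54.1% (26.8% higher and 27.4% lower). Under the Klp59D KD label 4 genes were apart, Dcp-1 higher and klhl10, Roc1b and Cyt-c-d lower, against a background of 46.8%, with 24% higher and 22.8% lower. Under the Tektin-C KD label 0 of 10 were apart, where 38.3% of all genes were, 21.6% higher and 16.7% lower. The 4 comparisons share the WT sample. The median log2 fold of the 10 genes was -0.29 in B9d1 KD, -0.02 under the Tektin-C KD label, -0.30 under the Klp59D KD label and -0.23 in the sa mutant, beside 0.09, 0.14, 0.07 and 0.04 for all genes in the same order of conditions.

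These counts depend in part on the scale. With library size alone, the median log2 fold of all genes became 0.65 in B9d1 KD, 0.23 under the Tektin-C KD label, 0.59 under the Klp59D KD label and 0.78 in the sa mutant. Of the genes then at least 2-fold apart, 71.4% were higher in B9d1 KD (52.1% with scaled totals), 71.8% under the Klp59D KD label (51.3%) and 71.1% in the sa mutant (49.5%). On that scale Roc1b and Cyt-c-d under the Klp59D KD label, at log2 folds of -0.71 and -0.85, were within 2-fold of WT, and Dark and Bruce, at 1.30 and 1.20, were past it. Dronc, Dark and Dcp-1 stayed at least 2-fold higher, and klhl10, Roc1b and Cyt-c-d at least 2-fold lower, in B9d1 KD and the sa mutant on both scales.

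Marker genes of other cells moved alongside. The 22 accessory gland markers summed to 567 CPM in B9d1 KD, 595 CPM under the Tektin-C KD label, 3289 CPM under the Klp59D KD label and 1586 CPM in the sa mutant, against 53.4 CPM in WT, where 3 of the 22 had no counts and 18 were under 1 CPM. The 15 muscle sheath markers summed to 938, 1909, 1337 and 945 CPM in those 4 conditions, against 3763 CPM in WT, with none at 0. Act87E alone was at 941 CPM under the Tektin-C KD label and 925 CPM in WT. The list's median log2 fold was -2.15, -1.86, -1.66 and -1.98 in the same order. The 13 hub and cyst cell markers summed to 345 to 368 CPM in the altered conditions and 506 CPM in WT. Of these, dlg1 was at 59.1 to 72.8 CPM against 133 CPM in WT. By gene, 9 of the 13 were within 2-fold of WT in each knockdown and 10 in the sa mutant. Of all genes, 53.1% were at least 2-fold apart in B9d1 KD, 38.3% under the Tektin-C KD label, 46.8% under the Klp59D KD label and 54.1% in the sa mutant. The list's median log2 fold was -0.27, -0.12, -0.03 and -0.29 in the 4 conditions. The 10 germline stem cell and spermatogonial markers summed to 597, 296, 488 and 628 CPM, against 471 CPM in WT. Rbp9 alone gave 353 CPM of that WT sum and was lower in all 4. By gene, 7 of the 10 were at least 2-fold higher in B9d1 KD, 3 under the Tektin-C KD label, 9 under the Klp59D KD label and 7 in the sa mutant, with Rbp9 lower in each. Of all genes, 27.7%, 21.6%, 24% and 26.8% were at least 2-fold higher in the same order of conditions. The count of 3 under the Tektin-C KD label is near that background. The 14 spermatocyte markers summed to 3054, 3347, 2735 and 1706 CPM, against 1592 CPM in WT. The gene bol, the highest of the list in WT, gave 1018 CPM of that WT sum and was at 157 CPM in the sa mutant. By gene, 11 of the 14 were at least 2-fold higher in B9d1 KD, 7 under the Tektin-C KD label, 12 under the Klp59D KD label and 9 in the sa mutant, where the list's median log2 fold was 1.78 and 2 genes, bol and the mutated sa itself, were lower. The shares of all genes that were higher are those given for the germline markers. The 20 elongating spermatid and sperm markers summed to 13806.5 CPM in B9d1 KD, 41459 CPM under the Tektin-C KD label, 15924 CPM under the Klp59D KD label and 3365 CPM in the sa mutant, against 47841 CPM in WT. By gene, 18 of the 20 were at least 2-fold lower in the sa mutant, 11 in B9d1 KD and 10 under the Klp59D KD label. Of all genes, 27.4%, 25.5% and 22.8% were at least 2-fold lower in the same order of conditions. Under the Tektin-C KD label 12 of the 20 were above WT (median log2 fold 0.11), and Mst84Db alone, at 1803 CPM against 8289 CPM in WT, differed by more than the sums did. The 16 cup and comet genes summed to 2199, 5829, 2844 and 706 CPM, against 5156 CPM in WT, with 1 of them at 0 in every condition. Caspase genes are widely expressed, and the part of these other cells in the levels of the 10 genes was not tested.

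Levels of different genes were compared per kilobase of exon. Cyt-c-d led in every condition, at 217 CPM per kb in B9d1 KD, 596 under the Tektin-C KD label, 310.1 under the Klp59D KD label and 147 in the sa mutant, against 807 CPM per kb in WT, and stood at or above the 93.9th percentile of kept genes in all 5. Cul3 came next, or next after Roc1b, everywhere (93.4 to 221 CPM per kb). Drice was last in the 4 altered conditions (3.72 to 5.27 CPM per kb), and Dcp-1 was last in WT, at 2.85 CPM per kb. Roc1b was second in WT at 237 CPM per kb but seventh in the sa mutant at 16.0 CPM per kb, below Dark.

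**Figure D3:**
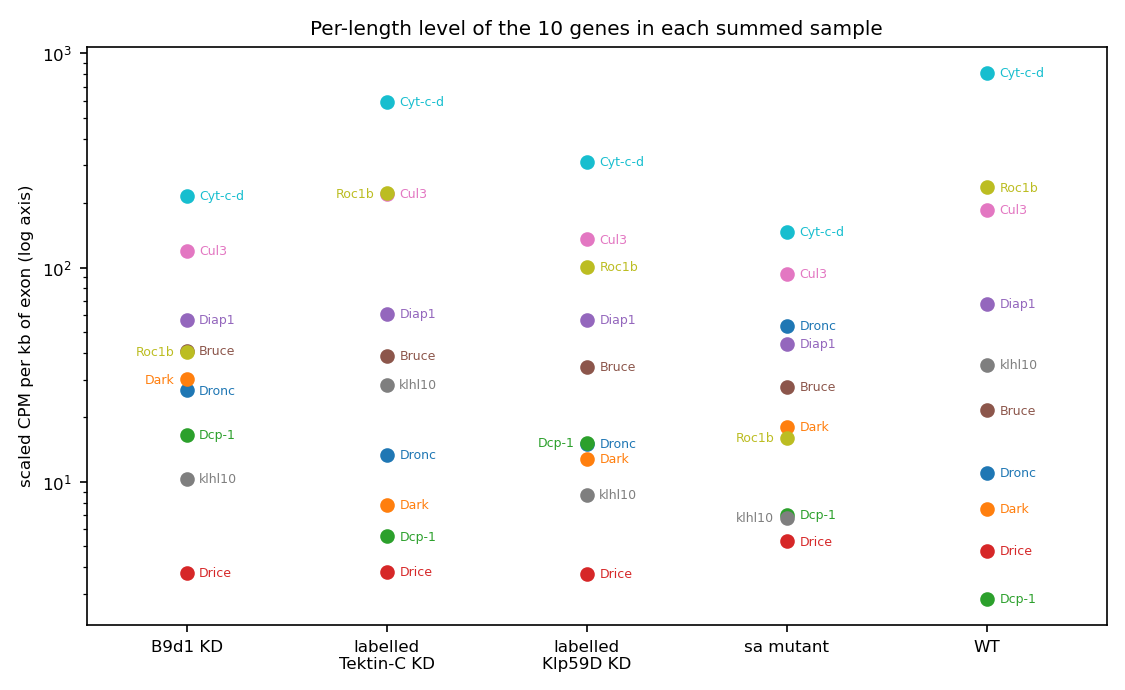
Scaled CPM per kilobase of exon (vertical axis, log scale) of the 10 genes in the 5 summed samples, 1 point per gene. Dronc lies above Diap1 in the sa mutant (53.6 against 44.1 CPM per kb) and below it in the 4 other samples.

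Several ratios within the pathway differed between conditions. The Dronc level per kb was 0.468 times that of its inhibitor Diap1 in B9d1 KD, 0.220 times under the Tektin-C KD label, 0.262 times under the Klp59D KD label and 1.21 times in the sa mutant, against 0.163 times in WT. For Bruce over klhl10, the target of the ligase over its adaptor, the ratio was 3.97 in B9d1 KD, 1.36 under the Tektin-C KD label, 3.95 under the Klp59D KD label and 4.09 in the sa mutant, against 0.614 in WT. The testis RING gene Roc1b was set beside its widely expressed paralog Roc1a. Roc1b made up 37.8% of their combined level per kb in B9d1 KD, 83.9% under the Tektin-C KD label, 63.2% under the Klp59D KD label and 10.9% in the sa mutant, against 75.9% in WT. Roc1a itself was at 81.8, 52.2, 71.8 and 160.8 CPM in the 4 altered conditions, against 92.2 CPM in WT.

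B9d1 KD was set against the average of the other knockdowns, which have the same driver, Dicer-2, temperature and days of growth. Here 2 of the 10 genes were at least 2-fold apart, against 20.7% of all genes (8.63% higher and 12.1% lower). Dark was 3.00-fold higher in B9d1 KD, and Roc1b was 3.68-fold lower. Cyt-c-d lay on the limit (log2 fold -0.99), with Dronc at 0.92, Dcp-1 at 0.85, klhl10 at -0.61, Cul3 at -0.53, Bruce at 0.16, Diap1 at -0.05 and Drice at 0.00. The mean joins unlike samples: klhl10 was at 82.7 CPM under the Tektin-C KD label and 25.3 CPM under the Klp59D KD label, with B9d1 KD at 29.9 CPM.

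The knockdowns were also set against the sa mutant, which was kept at another temperature and carries no driver. In B9d1 KD 3 of 10 genes were at least 2-fold apart from the sa mutant (background 40.1%, with 24% higher and 16.1% lower). Dcp-1 was 2.37-fold higher [2.16 to 2.61], Roc1b was 2.52-fold higher [2.26 to 2.85], and Dronc was 2.00-fold lower [1.92 to 2.09], on the limit and inside it in 4 of the alternatives. Under the Tektin-C KD label 6 of 10 were apart (background 50.7%, with 27.1% higher and 23.6% lower): Roc1b was 13.8-fold, klhl10 4.20-fold, Cyt-c-d 4.04-fold and Cul3 2.36-fold higher, and Dronc 4.0-fold and Dark 2.30-fold lower. With library size alone Cul3, at a log2 fold of 0.57, was no longer past 2-fold there, and Drice, at -1.14, was, which left the count at 6. Under the Klp59D KD label 4 of 10 were apart (background 40.2%, with 24% higher and 16.2% lower), with Roc1b 6.25-fold, Dcp-1 2.16-fold and Cyt-c-d 2.10-fold higher and Dronc 3.56-fold lower. Every knockdown thus stood above the sa mutant for Roc1b and below it for Dronc, and these 3 comparisons share the sa sample.

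The other genes of the pathway were taken from 5 lists. The spermatid individualization list had 30 measured genes. In the sa mutant 14 of them were at least 2-fold lower than in WT and 1 was higher (median log2 fold -0.85, all genes 0.04), in B9d1 KD 7 were lower and 4 higher (median -0.18), under the Klp59D KD label 6 lower and 1 higher (median -0.19) and under the Tektin-C KD label 1 lower and 3 higher (median -0.21). Of all genes, 27.4% were lower in the sa mutant, 25.5% in B9d1 KD, 22.8% under the Klp59D KD label and 16.7% under the Tektin-C KD label, so the counts of 7 and 6 lower genes are near the background. The shares of all genes higher were 26.8%, 27.7%, 24% and 21.6% in the same order. In every condition the list's count of higher genes lay below that share. So did the 1 lower gene under the Tektin-C KD label, beside its share of 16.7%. With library size alone, 10 genes were lower and 9 higher in the sa mutant (median -0.09), on a scale where the median of all genes was 0.78. On that scale 18% of all genes were lower and 44.5% higher. The list's median lay 0.87 below that of all genes there, against 0.89 below with scaled totals. The inhibitor of the Cul3 and Klhl10 ligase, soti, was at 385 CPM in B9d1 KD, 1022 CPM under the Tektin-C KD label, 628 CPM under the Klp59D KD label and 127 CPM in the sa mutant, against 1577 CPM in WT. That is 12.4-fold lower in the sa mutant and 4.10-fold lower in B9d1 KD. The F-box gene ntc (nutcracker), which spermatids need to activate caspases, was at 197, 375, 189 and 50.3 CPM in those 4 conditions, against 519 CPM in WT. PI31, the proteasome regulator that binds its product, was at 327, 874, 494.5 and 394.5 CPM, against 2454 CPM in WT, and was lowest in B9d1 KD at 7.51-fold below WT. The translational regulator orb2 was 10.9-fold and mlt 10.2-fold lower in the sa mutant.

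Of the 7 other caspases and adaptors, 1 was at least 2-fold higher and 2 lower in B9d1 KD, 1 higher and 2 lower under the Tektin-C KD label, 1 higher and 1 lower under the Klp59D KD label, and 1 higher and 1 lower in the sa mutant. Of all genes, 53.1%, 38.3%, 46.8% and 54.1% were 2-fold apart in those 4 comparisons. The adaptor gene Fadd was at 17.8 CPM in the sa mutant against 8.63 CPM in WT. The caspase gene Damm was at 0.849 against 3.65 CPM, the caspase gene Decay at 1.12 against 0.546 CPM, and Buffy, of the Bcl-2 family, at 8.07 against 15.6 CPM. Of the 8 IAPs and antagonists, 1 was higher and 1 lower in B9d1 KD, 4 higher and 1 lower under the Tektin-C KD label, 3 higher and 1 lower under the Klp59D KD label, and 1 higher and 2 lower in the sa mutant, beside the same shares of all genes. Those counts include grim and skl, which were at 1.32 CPM or less in every summed sample. The Survivin relative Det was at 27.6, 13.0, 20.1 and 37.1 CPM in the 4 altered conditions, against 5.22 CPM in WT, and Prx4 (Jafrac2) was at 125 CPM in the sa mutant against 416 CPM in WT.

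Genes of the general Cullin machinery were more often higher than lower in the altered testes. Of 20 genes for other cullins, RING subunits, neddylation and the COP9 signalosome, 10 were at least 2-fold higher and 2 lower in the sa mutant (median 1.09), 9 higher and 1 lower in B9d1 KD (median 0.86), 7 higher and 1 lower under the Klp59D KD label (median 0.77) and 6 higher and 0 lower under the Tektin-C KD label (median 0.39). Of all genes, 26.8% were higher in the sa mutant, 27.7% in B9d1 KD, 24% under the Klp59D KD label and 21.6% under the Tektin-C KD label. The shares lower were 27.4%, 25.5%, 22.8% and 16.7% in the same order. The count of 6 higher genes under the Tektin-C KD label is therefore near the background, and that of 7 under the Klp59D KD label is little further above it. The medians of 0.39 and 0.77 in those conditions stood beside 0.14 and 0.07 for all genes. With library size alone the list's median in the sa mutant was 1.85 beside 0.78 for all genes, a difference of 1.07, against 1.05 with scaled totals. Cul4 was at 158 CPM in the sa mutant against 26.3 CPM in WT. Among the 12 other BTB adaptors of Cul3, 5 were higher and 0 lower in the sa mutant (median 0.73), 5 higher and 1 lower in B9d1 KD (median 0.76), 1 higher and 1 lower under the Klp59D KD label (median 0.53) and 2 higher and 1 lower under the Tektin-C KD label (median 0.24). Set against the same shares of all genes, the counts of 1 and 2 higher adaptors do not exceed the background. A list of 12 genes is too short to place them below it, or to place the counts of 5 higher adaptors above it. KLHL18 was at 162 CPM in the sa mutant against 19.9 CPM in WT, mri at 73.0 against 20.1 CPM and Tango10 at 48.2 against 14.9 CPM. The largest fitted fold in that list was that of gprs, at 1.30 against 0.102 CPM, which rests on 3 counts in WT [4.16 to 63.4].

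**Figure D4:**
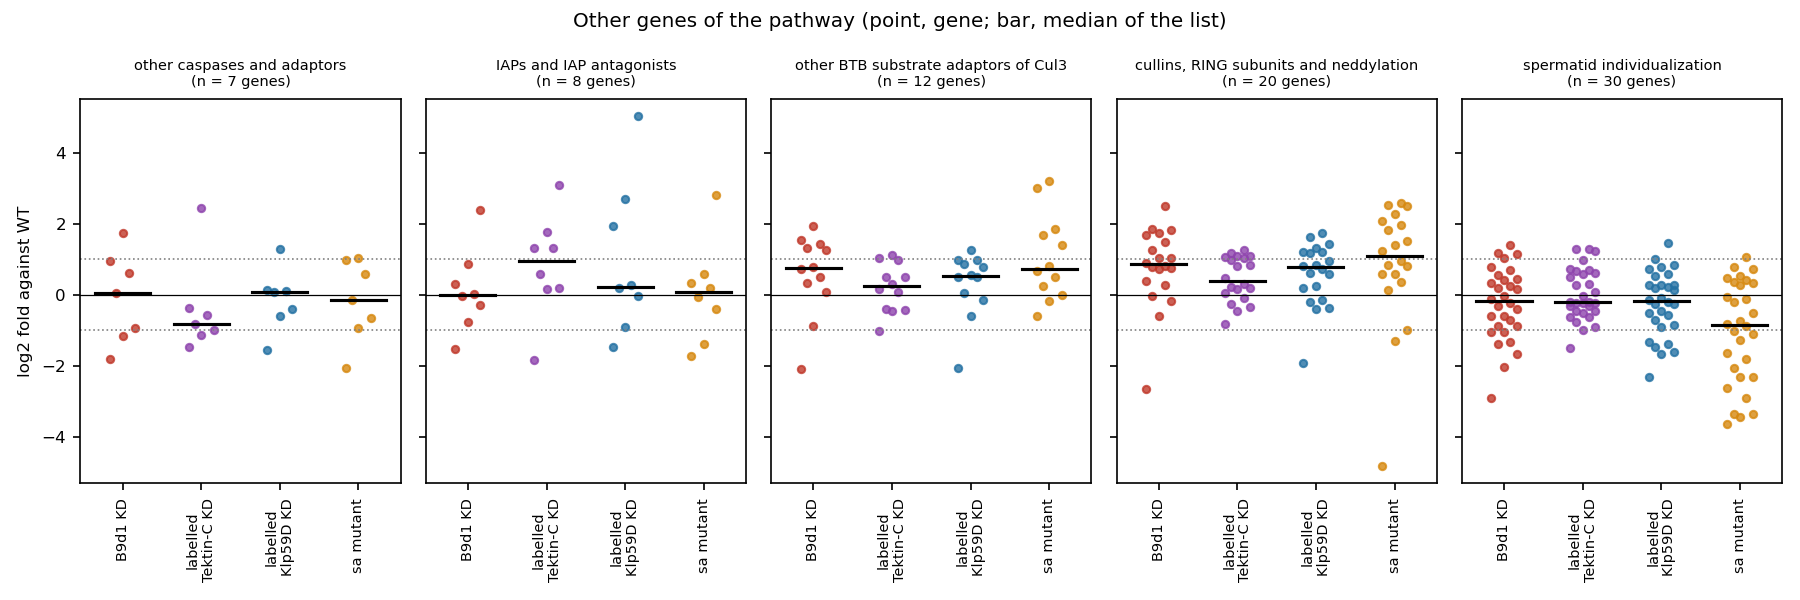
Log2 fold against WT (vertical axis) of the measured genes of 5 pathway lists in the 4 altered conditions; each point is a gene, the bar is the list's median and dotted lines mark 2-fold. The individualization list reaches its lowest median, -0.85, in the sa mutant, where the list of cullins, RING subunits and neddylation has its highest, 1.09; the median of all genes was 0.04 there.

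The 10 genes were compared by the shape of their levels over the 5 conditions, as the root mean squared distance between mean-centred log2 profiles. The nearest pair was klhl10 and Cyt-c-d (0.291), followed by Diap1 and Cul3 (0.295), which had the narrower ranges. Among 4137 genes with a name with an average log2 CPM of at least 4, the 3 genes nearest to Roc1b were COX6AL, GC2 and Nagk (0.268 to 0.288), and those nearest to Cyt-c-d were eIF2A, Sbat and Trc8 (0.108 to 0.127). Those nearest to klhl10 were Cnep1r1, Rpe and Prosbeta5R1 (0.161 to 0.215), and to Cul3 Rpn13R, SkpB and Mitofilin (0.0367 to 0.102). Dronc lay nearest to aft, dor and alien (0.104 to 0.161), Dark to PolE1 and Prp40 (0.105 and 0.109; the third, at 0.115, is not named here), and Dcp-1 to Cap-D2, mRpL9 and ocm (0.147 to 0.241). Bruce lay nearest to bbc, Fs(2)Ket and RabGGTb, Drice to Pgant7, crb and HP1b, and Diap1 to a, Mlf and Osbp.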

How the data were processed

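Total RNA of whole testes was profiled after ribosomal RNA depletion with a stranded kit, per the labels' protocols. The deposited files hold raw read counts per gene with no normalization that the values show. Trim Galore 0.4.1, STAR 2.5.1b and dm6 are named in the submitters' processing notes; which counter was used, with what strand setting, and what became of multiply mapped reads is not given in the sources used here, so counts of overlapping genes are uncertain. Symbols, exon lengths and positions were taken from the Ensembl 115 annotation of that assembly (17138 of 17412 identifiers matched). Of 193 list entries beside the members, 187 were counted.

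Each condition's libraries were summed. TMM factors (0.763 to 1.30) and the low-count filter came from edgeR 4.0.16 over all 10 libraries, and effective totals were 29303433 to 57688318. A count of 0 allows up to 3 counts, which is 0.052 to 0.102 CPM. Intervals and such limits cover counting error only. Named were all 10 genes, the targeted genes, soti, ntc, PI31, Cyt-c-p, up to 4 genes per list with the largest fold in the sa mutant against WT, and the 3 nearest profiles. The paralogs Roc1a and CSN1b and the genes overlapping a member were named too. Single genes of the marker lists (Act87E, dlg1, Rbp9, bol and Mst84Db) were picked by their values. The genes and lists were chosen with earlier results of these data known. The steps were tested on simulated data in which few genes differed. That test does not cover the scaling of these data, where far more genes differed. Same-numbered libraries moved together: log2 ratios of the second library over the first correlated at 0.103 to 0.187 over 6231 genes in all 10 pairs of conditions, so the numbers pair the libraries, from the data and not the labels.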

Additional observations from a re-analysis of the deposited data

How the results depend on the processing

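The counts of genes at least 2-fold apart were recomputed under 12 alternatives. No log2 fold of the 10 genes that was past 2-fold (31 in the 8 comparisons) changed sign in any of them. With library size alone, 1 of the 10 genes (Dcp-1) was apart from WT under the Tektin-C KD label in place of 0, 4 in place of 2 in B9d1 KD against the mean of the other two knockdowns, and 2 in place of 4 under the Klp59D KD label against the sa mutant; the cause was not tested. That scale also gave a share of higher genes, among all genes apart, of 67.3% in place of 41.6% in B9d1 KD against that mean, and, against the sa mutant, of 49.6% in place of 59.8% in B9d1 KD, 31.5% in place of 53.5% under the Tektin-C KD label and 47.7% in place of 59.6% under the Klp59D KD label. At 1.5-fold, which admits smaller differences by construction, 2 of the 10 genes were apart from WT under the Tektin-C KD label, 6 in B9d1 KD against the mean and 5 against the sa mutant, and among all genes 8296, 6184 and 8418 were, with 8446 under the Klp59D KD label against the sa mutant. Leaving out replicate 1 or 2 of every condition gave 0 to 1 gene apart from WT under the Tektin-C KD label. Without replicate 1, Cyt-c-d passed 2-fold in B9d1 KD against the mean, and Dronc, at a log2 fold of -0.99, did not in B9d1 KD against the sa mutant. The edgeR fit with the replicate block, an adjusted p and 2-fold gave 6, 0, 4 and 6 genes apart from WT in B9d1 KD, the Tektin-C KD label, the Klp59D KD label and the sa mutant, as the paired numbers left every call as it was without the block; such p-values measure only the spread between repeat libraries. The effect of scaling on the pathway lists, given with those lists, was looked at after the data had been seen. Depth limits Dcp-1 and Drice most, with 146 and 269 counts in the summed WT sample.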

Other observations

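The COP9 signalosome, which removes Nedd8 from cullins, had a pair of genes for its first subunit that differed in the same testes. CSN1a was at 38.2 CPM in B9d1 KD, 203.5 CPM under the Tektin-C KD label, 63.9 CPM under the Klp59D KD label and 8.51 CPM in the sa mutant, against 242 CPM in WT, which is 28.3-fold lower in the sa mutant and 6.33-fold lower in B9d1 KD. Its paralog CSN1b was at 68.7, 68.2, 83.0 and 141 CPM, against 33.3 CPM in WT. Of the other subunits, CSN6 was at 126 CPM and CSN3 at 170.6 CPM in the sa mutant, against 21.7 and 30.0 CPM in WT. CSN1a thus had the order of conditions seen for Roc1b and Cyt-c-d, with the Tektin-C KD label below WT and the sa mutant lowest. How far the counting split reads between CSN1a and CSN1b was not tested.

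The antagonist gene hid was at 34.1 CPM under the Tektin-C KD label, and at 9.58 to 12.3 CPM in the other conditions. The antagonist gene rpr was at 1.46 CPM in B9d1 KD, 1.18 CPM under the Tektin-C KD label, 1.51 CPM under the Klp59D KD label and 4.91 CPM in the sa mutant, against 4.30 CPM in WT. Both genes were singled out after their values were seen.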
